A study of Mus musculus with 20 samples.

Results

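The 8 genes described here make transport proteins, or proteins that mark the transporting cells, of the loop of Henle and the distal tubule in the mouse kidney. Umod, Slc12a1, Kcnj1 and Bsnd are grouped here under the thick ascending limb. Slc12a3, Pvalb, Trpm6 and Kcnj10 are grouped under the distal convoluted tubule. Whether each gene is confined to its segment cannot be told from whole kidneys. They were chosen by name, with earlier results of these data known, as 8 of the 24411 gene symbols in the table of counts. The lists of other genes below were chosen in the same way. Each of the 8 passed the filter on low counts in every comparison below.

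The thick ascending limb takes up sodium, potassium and chloride through the cotransporter NKCC2 (Slc12a1), returns potassium to the lumen through the channel ROMK (Kcnj1) and lets chloride out at the blood side through channels that need barttin (Bsnd). The same cells make uromodulin (Umod), the most abundant protein of normal urine. In the distal convoluted tubule, sodium and chloride enter through the thiazide-sensitive cotransporter NCC (Slc12a3), magnesium enters through the channel TRPM6 (Trpm6), basolateral potassium channels with Kir4.1 (Kcnj10) set the membrane voltage, and parvalbumin (Pvalb) binds calcium in the early part of the segment.

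Whole kidneys were compared between mice that lost Pkd2 late and mice that kept it. Every mouse carried Pkd2 fl/fl and was given DOX (doxycycline) at 50 mg/kg by intraperitoneal injection from P27 to P29, and every kidney was taken at P125. The 10 mutants also carried Pax8 rtTA and TetO Cre, so that DOX switched on Cre wherever the Pax8 promoter is active, which is in all renal tubule compartments. The 10 controls lacked Pax8 rtTA or TetO Cre. There were 5 mice of each sex in each genotype, from 3 litters, and they are numbered 1 to 5 within a group with no pairing between groups. Kidney to body weight (KBW), the weight of 1 kidney as a percentage of body weight, was 0.692% ± 0.117 (SD, n = 5) in male controls, 1.68% ± 0.338 in male mutants, 0.615% ± 0.0448 in female controls and 1.18% ± 0.261 in female mutants.

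The libraries held 11307741 to 19324073 counts, and no 2 held identical values. Pkd2 was at 291 ± 31.1 CPM (read counts scaled to a common library size) in male controls and 119 ± 9.85 CPM in male mutants, and at 257 ± 49.1 CPM in female controls and 145 ± 33.6 CPM in female mutants. The library of female mutant 4 stood apart, with 14850 genes detected against 16776 to 17724 in the other mice and 76 genes with a single count against 708 to 859. The count of genes called in females is therefore given with and without it. Levels, differences within litters, gene ratios and correlations include it unless stated. In a whole kidney, fewer cells of a type and less RNA per cell cannot be told apart.

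At the level of transcripts per length (CPM divided by the length in kilobases of the longest coding transcript), the order in both control groups was Umod, Slc12a1, Slc12a3, Kcnj1, Pvalb, Bsnd, Kcnj10 and Trpm6. In male controls the level ran from 1538 ± 40.7 CPM per kilobase for Umod to 4.36 ± 0.568 for Trpm6. Pvalb and Bsnd were the neighbours whose mice overlapped in both control groups. In both mutant groups Slc12a3 overlapped Kcnj1, Bsnd ranked above Pvalb, and Bsnd, Pvalb and Kcnj10 overlapped their neighbours in that order. The marker genes of both segments were thus measured in every mouse, and the 8 genes together took 0.626% to 0.686% of all counts in male controls, 0.460% to 0.545% in male mutants, 0.958% to 1.09% in female controls and 0.614% to 0.756% in female mutants.

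The genes lie on different chromosomes (GENCODE M21, GRCm38, the assembly also called mm10). Umod spans chr7:119462711-119479282, Slc12a1 chr2:125152505-125230002, Kcnj1 chr9:32372493-32399197 and Bsnd chr4:106483456-106492283. Slc12a3 spans chr8:94329201-94366214, Pvalb chr15:78191114-78206400, Trpm6 chr19:18749983-18892511 and Kcnj10 chr1:172341210-172374085. Part of an exon of Umod also lies in Gm44588 on the other strand, and without a stated strand setting the reads of the pair cannot be told apart there.

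The upstream sequences of the 4 distal convoluted tubule genes are shown because all 4 held letters of the same motif. That choice was made after the motif search. All 8 genes were called lower in mutants, so the change with Pkd2 loss does not set these 4 apart. Each sequence is the 250 bases before a RefSeq start site (GRCm38.p6), 5′ to 3′ on the strand of the gene. Slc12a3 is chr8:94328958-94329207 on the plus strand, Kcnj10 chr1:172340960-172341209 on the plus strand, Trpm6 chr19:18749480-18749729 on the plus strand and Pvalb chr15:78206401-78206650 on the minus strand. Capitals mark matches to the AP-2 motif GCCNNNGGC, which reads the same on both strands, and in Slc12a3 also the TATA box TATAAA.
Slc12a3: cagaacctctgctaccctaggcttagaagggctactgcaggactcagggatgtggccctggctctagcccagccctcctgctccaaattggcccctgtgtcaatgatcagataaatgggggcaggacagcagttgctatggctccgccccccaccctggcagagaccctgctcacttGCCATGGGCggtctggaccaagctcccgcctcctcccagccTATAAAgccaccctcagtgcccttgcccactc
Kcnj10: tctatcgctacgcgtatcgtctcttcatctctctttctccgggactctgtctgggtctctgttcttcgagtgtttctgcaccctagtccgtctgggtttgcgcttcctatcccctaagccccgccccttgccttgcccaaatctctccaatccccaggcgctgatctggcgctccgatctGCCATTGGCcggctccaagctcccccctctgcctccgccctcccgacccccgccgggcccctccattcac
Trpm6: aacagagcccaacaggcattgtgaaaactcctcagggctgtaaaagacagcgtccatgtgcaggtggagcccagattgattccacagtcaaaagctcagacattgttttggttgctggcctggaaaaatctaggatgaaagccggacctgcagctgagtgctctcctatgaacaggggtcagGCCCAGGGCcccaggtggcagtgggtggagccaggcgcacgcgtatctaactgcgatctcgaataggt
Pvalb: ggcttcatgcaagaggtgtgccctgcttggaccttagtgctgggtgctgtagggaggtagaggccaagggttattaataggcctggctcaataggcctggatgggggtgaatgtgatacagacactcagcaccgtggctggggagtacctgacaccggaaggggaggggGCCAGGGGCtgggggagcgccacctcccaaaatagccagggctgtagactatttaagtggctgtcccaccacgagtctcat

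All 4 of these windows held the AP-2 letters: GCCATGGGC began 73 bases before the start of Slc12a3, GCCATTGGC 70 before Kcnj10, GCCCAGGGC 68 before Trpm6 and GCCAGGGGC 81 before Pvalb. The second RefSeq window of Pvalb, chr15:78204238-78204487 on the minus strand and not printed, also held a match, GCCCCTGGC, that began 164 bases before its start. None of the windows of Umod, Slc12a1 and Kcnj1 held them. Among all 32851 windows of the same length, 13.7% had a match. Because the 4 genes are shown for holding the motif, this share is background and not a test. The TATA box letters, searched on both strands, were in 1 of the 7 genes with a window and in 12.4% of all windows. The estrogen-related receptor motif TCAAGGTCA, searched on both strands, was in the windows of 0 of the 7 and in 0.387% of all windows. A match is a stretch of letters and was not tested as a binding site.

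Loss of Pkd2 went with lower levels of all 8 genes over the mice of both sexes. Over the 20 mice, adjusting for sex and litter, all 8 were called lower in mutants (edgeR's quasi-likelihood test with Benjamini-Hochberg adjustment, adjusted p under 0.01), where 5.86% of the 14191 genes tested were called lower. The reduction was deepest for Pvalb and Slc12a3 in the distal convoluted tubule and shallowest for Umod in the thick ascending limb. The median log2 fold change was -0.63 over the 4 thick ascending limb genes, -0.90 over the 4 distal convoluted tubule genes and -0.01 over all genes tested. Trpm6 (-0.60) and Kcnj10 (-0.68) lay within the range of the thick ascending limb genes, from -0.73 for Slc12a1 to -0.42 for Umod. A difference between the segments was not tested.

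**Figure D1:**
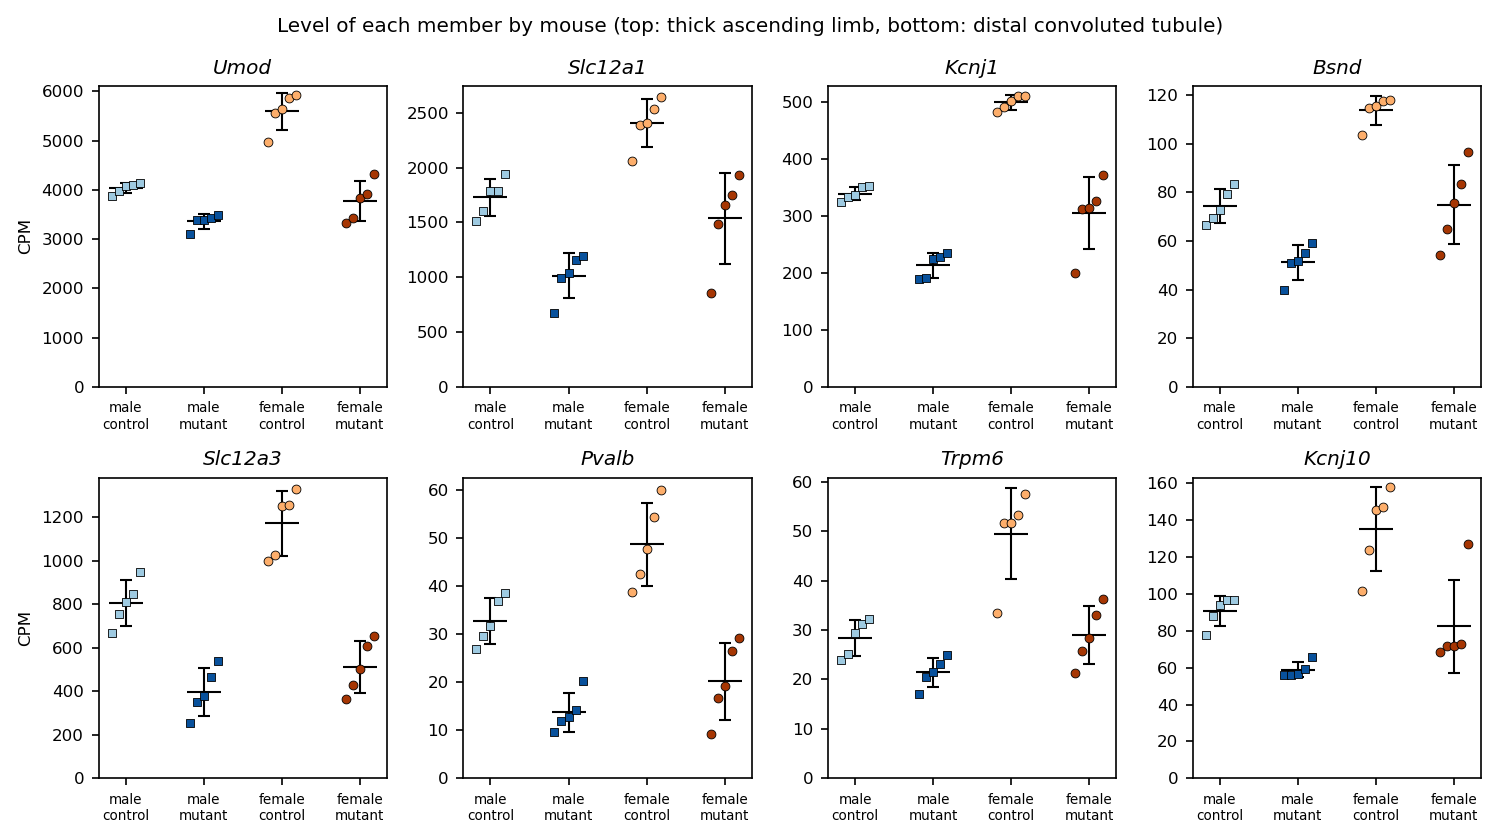
Level of each gene in CPM (y axis, from 0) in the 4 groups, with 1 point per mouse and lines for the mean and SD (n = 5). Mutants of each sex lie below controls of the same sex for every gene in the mean, and in Slc12a3 the highest mutant of either sex (655.5 CPM) lies below the lowest control (668.9 CPM).

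Slc12a1, the apical sodium, potassium and chloride cotransporter, was at 1789, 1787, 1511, 1608 and 1946 CPM in male controls 1 to 5 and at 674.6, 995.5, 1043, 1196 and 1157 CPM in male mutants 1 to 5. In females it was at 2538, 2647, 2408, 2063 and 2390 CPM in controls and at 1657, 1488, 856.3, 1937 and 1749 CPM in mutants. Within each sex every mutant was below every control, and male mutant 1 and female mutant 3 were the lowest of all. Over all mice Slc12a1 fell by 0.73 on the log2 scale (SE 0.13, adjusted p = 3.4e-04, edgeR).

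Kcnj1, the potassium channel that recycles potassium for Slc12a1, was at 352.1, 323.8, 333.1, 336.8 and 350.3 CPM in male controls and at 190.5, 224.8, 189.5, 235.2 and 228.3 CPM in male mutants. Female controls had 511.1, 511.4, 482.3, 501.4 and 491.5 CPM, and female mutants 326.3, 313.6, 200.2, 372.0 and 311.9 CPM. The control groups were tight, with an SD of 11.9 CPM in males and 12.7 CPM in females, and the mutants of each sex lay wholly below them. The joint change was -0.69 (SE 0.09, adjusted p = 2.0e-05, edgeR).

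Bsnd, a subunit of basolateral chloride channels, was at 66.6 to 83.5 CPM in male controls, 39.8 to 59.0 in male mutants, 103.5 to 117.9 in female controls and 54.2 to 96.5 in female mutants. Its groups did not overlap within either sex, and the joint log2 fold change was -0.57 (SE 0.09, adjusted p = 1.9e-04, edgeR).

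Umod, the urinary protein of these cells, had the smallest estimate of the 8 in each sex. Its level was 3877, 4094, 4145, 3986 and 4087 CPM in male controls and 3384, 3104, 3495, 3398 and 3438 CPM in male mutants, groups without overlap and a fitted difference of -17.6%. In females it was at 5924, 4979, 5635, 5567 and 5861 CPM in controls and at 4331, 3925, 3423, 3837 and 3321 CPM in mutants, again without overlap, and the fitted difference was -31.8%. The joint log2 fold change was -0.42 (SE 0.08, adjusted p = 5.8e-04, edgeR).

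Slc12a3, the thiazide-sensitive cotransporter that defines the distal convoluted tubule, separated the genotypes most clearly. It was at 949.6, 810.9, 668.9, 849.0 and 756.5 CPM in male controls and at 252.0, 538.7, 351.4, 463.8 and 379.1 CPM in male mutants. Female controls had 1258, 1329, 1254, 1001 and 1025 CPM, and female mutants 501.1, 366.1, 430.6, 655.5 and 607.6 CPM. It was the 1 gene of the 8 whose mutants and controls did not overlap over all 20 mice, against 0.261% of all genes tested that were lower without overlap. The joint fold was 0.462, a log2 change of -1.11 (SE 0.14, adjusted p = 1.8e-05, edgeR).

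Pvalb, the calcium-binding protein of the early distal convoluted tubule, was at 26.9 to 38.5 CPM in male controls and 9.56 to 20.2 CPM in male mutants, and at 38.8 to 60.0 CPM in female controls and 9.17 to 29.2 CPM in female mutants. Each sex was without overlap, and the lowest mutants were male mutant 1 and female mutant 3, as for Slc12a1. Its joint change was -1.26 (SE 0.17, adjusted p = 4.3e-05, edgeR), with a 95% interval from -1.61 to -0.90.

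Kcnj10, the basolateral potassium channel subunit, was at 77.8 to 96.8 CPM in male controls and 56.2 to 65.7 CPM in male mutants. In females it was at 158.0, 147.1, 145.8, 123.6 and 101.5 CPM in controls and at 71.7, 71.8, 68.4, 127.2 and 72.8 CPM in mutants. Female mutant 4, the library that stood apart, lay among the controls, and the other female mutants lay at 68.4 to 72.8 CPM. The joint change was -0.68 (SE 0.10, adjusted p = 9.1e-05, edgeR).

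Trpm6, the magnesium channel, had the groups that overlapped in both sexes. It was at 23.9 to 32.2 CPM in male controls, 17.0 to 24.9 in male mutants, 33.5 to 57.4 in female controls and 21.4 to 36.3 in female mutants. In each sex 1 mutant was above the lowest control. The joint change was -0.60 (SE 0.10, adjusted p = 3.4e-04, edgeR).

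In males alone, 6 of the 8 genes were called lower, where 3.20% of the 14010 genes tested were. The estimates were -0.83 (SE 0.13, adjusted p = 0.00181) for Slc12a1, -0.68 (SE 0.08, adjusted p = 4.9e-04) for Kcnj1 and -0.54 (SE 0.11, adjusted p = 0.0057) for Bsnd. In the distal convoluted tubule they were -1.04 (SE 0.18, adjusted p = 0.00319) for Slc12a3, -1.23 (SE 0.18, adjusted p = 0.00141) for Pvalb and -0.65 (SE 0.07, adjusted p = 5.3e-04) for Kcnj10. Umod at -0.28 (adjusted p = 0.0222) and Trpm6 at -0.44 (adjusted p = 0.0215) did not pass. At 0.05, 8 of 8 were lower, where 8.52% of genes tested were. No mutant reached a control in 7 of the 8, with Trpm6 the exception, where 6.56% of genes tested were lower without overlap. Without male control 4, 3 of the 8 were called, namely Slc12a1, Kcnj1 and Kcnj10. The share of all genes called in that fit is not reported here.

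In females alone, Slc12a3 was the 1 gene of the 8 called lower, at -1.18 (SE 0.17, adjusted p = 0.00772), where 0.180% of the 14439 genes tested were. The other estimates were -0.64 for Slc12a1 (adjusted p = 0.0838), -0.70 for Kcnj1 (0.022), -0.59 for Bsnd (0.031), -0.55 for Umod (0.0431), -1.28 for Pvalb (0.0197), -0.69 for Kcnj10 (0.0399) and -0.73 for Trpm6 (0.0229). At 0.05, 7 of 8 were lower, where 1.60% of genes tested were. No mutant reached a control in 6 of the 8, with Trpm6 and Kcnj10 the exceptions, against 3.33% of genes tested that were lower without overlap. The median standard error over all genes was 0.150 in females and 0.107 in males. Without female mutant 4, 5 of the 8 were called, Slc12a3, Kcnj1, Bsnd, Pvalb and Kcnj10. Leaving out any of the other 9 mice gave 0 of the 8. The shares of all genes called in these fits without a mouse are not reported here. DESeq2's Wald test on all 10 mice called 8 of 8. It called 928 of the 14439 genes in either direction, against 92 by edgeR.

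**Figure D2:**
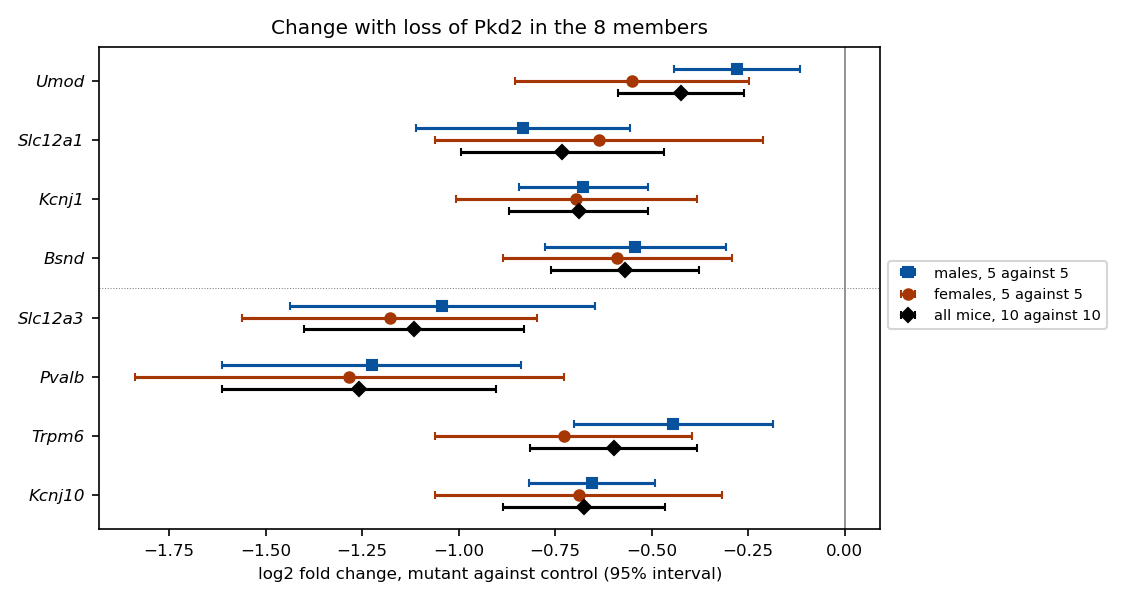
Log2 fold change of mutant against control (x axis) for the 8 genes (y axis) with 95% intervals, in males, in females and in all mice. All 24 intervals lie below 0, and the intervals of the sexes overlap for every gene, with Umod at -0.28 in males and -0.55 in females.

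The question whether the change with Pkd2 loss differed between the sexes was tested by the sex-by-genotype term, and no gene of the 14820 tested was called (edgeR, 0% called). An unadjusted p under 0.05 was found for 618 genes, or 4.17%, and DESeq2's Wald test called 18 genes, 0 of the 8 among them. Among the 8, Umod had the smallest p, with the change in males less deep than in females by 0.30 on the log2 scale (SE 0.14, 95% interval 0.01 to 0.59, adjusted p = 1, edgeR). For Slc12a3 the difference was 0.17 with an interval from -0.41 to 0.74, and for Pvalb 0.08 with an interval from -0.65 to 0.81. These intervals are too wide to show that the sexes changed alike.

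The lower levels were seen within each litter. In males, mutants were lower than controls of the same litter for 8 of 8 genes in litters A, B and C, with differences in mean log2 CPM from -1.36 to -0.21. In females the differences ran from -1.64 to -0.38, again for 8 of 8 genes in each litter. Litter C held 1 mutant and 1 control of each sex and litter A 1 of each among the females, so that these are differences between single mice.

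Control females had higher levels of the 8 genes than control males, and no male control reached a female control for any of them. For comparison, 14.2% of genes tested were lower in males without overlap. As a called difference, 7 of the 8 were lower in males, where 9.02% of the 14123 genes tested were. The male against female log2 differences were -0.46 for Umod (adjusted p = 1.0e-03), -0.46 for Slc12a1 (0.00479), -0.52 for Kcnj1 (9.2e-05), -0.54 for Bsnd (3.3e-04), -0.49 for Slc12a3 (0.00762), -0.66 for Trpm6 (0.00247) and -0.51 for Kcnj10 (0.00686), and Pvalb at -0.55 (0.0143) did not pass (edgeR). Scaling by total counts moved the median of all genes from -0.01 to -0.15 in this comparison, and Umod then stood at -0.60 and Slc12a3 at -0.63. Without female control 1, 2 of the 8 were called, and without male control 4, 3 were. The shares of all genes called in these fits are not reported here. Markers of some other cells were lower in control males as well. Podocyte genes were called in 7 of 7 (summed level 268 to 419 CPM in males and 520 to 669 in females). Endothelial genes were called in 6 of 7 (298 to 351 and 420 to 495 CPM). Of 12 proximal tubule genes, 1 was called lower and 2 higher, with a median of -0.02. Fewer were called lower on the lists of intercalated cells (2 of 8), macrophages (2 of 7) and fibroblasts and myofibroblasts (2 of 7). Their part in the difference was not tested.

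Among mutants the same direction was seen in the estimates, but 0 of the 8 were called (edgeR, 0 also by DESeq2's Wald test, and 1.84% of the 14416 genes tested were called lower in males). At an unadjusted p under 0.05, 5 of the 8 were lower in males, where 14.6% of genes tested were. Bsnd had the smallest adjusted p at 0.0428, with a difference of -0.56, and was the 1 gene of the 8 under 0.05, where 6.01% of genes tested were lower. Umod had the smallest difference, at -0.15 (95% interval -0.45 to 0.15). Kcnj10 was the 1 gene whose male and female mutants did not overlap, with the highest male at 65.7 CPM and the lowest female at 68.4 CPM, against 5.33% of genes tested that were lower without overlap. Scaling by total counts moved the median of all genes to -0.21 here.

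Among mutants, Slc12a3 was lower in mice with heavier kidneys, by a slope that did not pass the threshold of 0.01. In males its level followed the order of KBW without exception, from 538.7 CPM at a KBW of 1.22% through 463.8 at 1.54%, 379.1 at 1.71% and 351.4 at 1.79% to 252.0 at 2.15%. In females it was 655.5 CPM at 0.836%, 607.6 at 1.00%, 366.1 at 1.24%, 501.1 at 1.38% and 430.6 at 1.46%, so that female mutant 2 broke the order. With sex in the model, the slope was -1.15 on the log2 scale per percentage point of KBW (SE 0.22, adjusted p = 0.0302, edgeR). No gene of the 14416 tested passed an adjusted p of 0.01, whether it rose or fell with KBW, while DESeq2's Wald test called 577 genes, with Slc12a3 (adjusted p = 5.9e-05) the 1 among the 8. At 0.05, 0.527% of genes fell with KBW, Slc12a3 among them and none of the other 7. Leaving out a mouse gave slopes from -1.22 to -1.05 and adjusted p-values from 0.0188 to 0.204, the largest without male mutant 1, the mouse with the heaviest kidney.

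The other members had slopes from close to that of Slc12a3 down to almost none, and none of them passed the test. Pvalb had a slope of -1.04 (SE 0.43, adjusted p = 0.179) and Slc12a1 -0.90 (SE 0.33, adjusted p = 0.137), followed by Kcnj1 at -0.55 (adjusted p = 0.174), Kcnj10 at -0.54 (0.251) and Bsnd at -0.47 (0.275). Umod, at 0.10 (95% interval -0.36 to 0.57), and Trpm6, at 0.07 (95% interval -0.55 to 0.69), had estimates near 0 that turned below 0 without the sex term. At an unadjusted p under 0.05, 4 of the 8 fell with KBW, where 10.7% of genes tested did. Without female mutant 4, which had the lightest mutant kidney, the slope of Kcnj10 went from -0.54 to -0.09 and that of Bsnd from -0.47 to -0.29. Markers of other cells also varied with KBW: the median slope was -0.83 over 12 proximal tubule genes, -1.05 over 8 intercalated cell genes, 2.19 over 7 macrophage genes and 2.72 over 8 tubule injury genes, and -0.06 over all genes. Their part in the result was not tested.

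**Figure D3:**
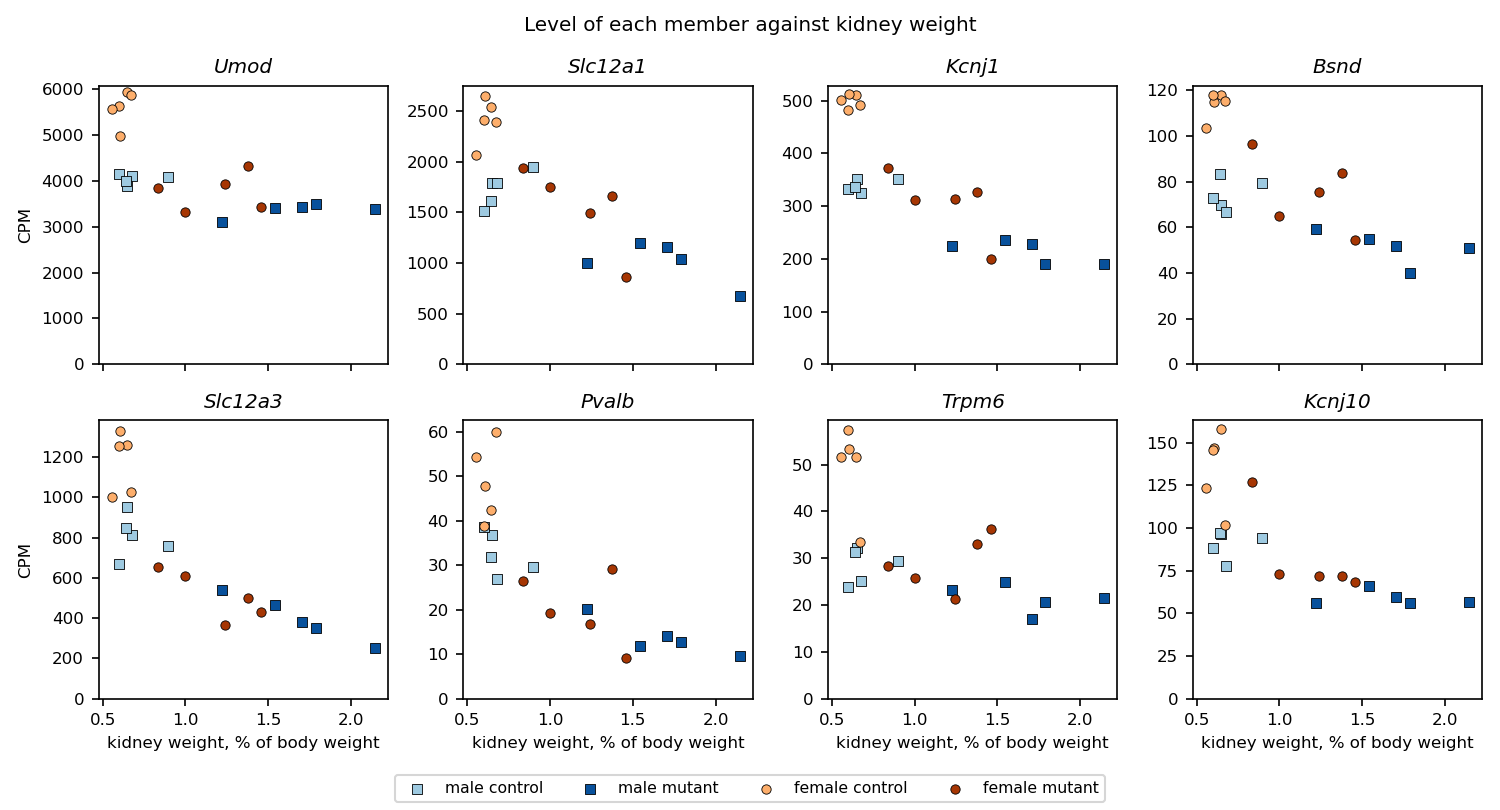
Level of each gene in CPM (y axis, from 0) against kidney weight as a percentage of body weight (x axis), 1 point per mouse, with squares for males, circles for females, light points for controls and dark points for mutants. Slc12a3 falls from 538.7 to 252.0 CPM over the 5 male mutants as KBW goes from 1.22% to 2.15%, while Umod in the same mice stays between 3104 and 3495 CPM.

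Whether the members grouped under a segment fell by the same amount was asked with ratios of genes within a library. Library scaling cancels in such a ratio, except through the prior count of 2 in the log2 values. With a prior count of 0.5, the difference for Pvalb to Trpm6 moved from -0.728 to -0.732. The 6 pairs within each segment were compared by a two-sided exact permutation test with genotype permuted within sex and not within litter, and 5 of the 12 pairs passed an adjusted p of 0.05. Permuted within sex and litter (4800 relabellings, added after seeing the data), the same 5 pairs passed, with adjusted p-values from 0.0075 to 0.015 (exact permutation). In the distal convoluted tubule the split lay between Slc12a3 and Pvalb on the one side and Trpm6 and Kcnj10 on the other. Relative to Trpm6, Slc12a3 fell by 0.55 on the log2 scale (adjusted p = 0.00926, exact permutation) and Pvalb by 0.73 (adjusted p = 0.01, exact permutation). Relative to Kcnj10, Slc12a3 fell by 0.46 (adjusted p = 0.00926, exact permutation) and Pvalb by 0.64 (adjusted p = 0.0107, exact permutation).

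Slc12a3 and Pvalb did not separate from each other (difference 0.18, adjusted p = 0.384, exact permutation), nor did Trpm6 from Kcnj10 (0.09, adjusted p = 0.535, exact permutation). In the thick ascending limb the 1 pair past the threshold was Umod to Kcnj1, with Umod higher relative to Kcnj1 in mutants by 0.29 (adjusted p = 0.01, exact permutation). The shift was 0.41 in males and 0.17 in females. Umod to Slc12a1 moved by 0.33 and did not pass (adjusted p = 0.0539, exact permutation). In male controls the log2 ratio of Umod to Slc12a1 was 1.23 ± 0.16 (SD, n = 5), and in male mutants 1.76 ± 0.33. With medians in place of means, 4 pairs passed, Pvalb to Kcnj10 no longer among them (adjusted p = 0.089, exact permutation).

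**Figure D4:**
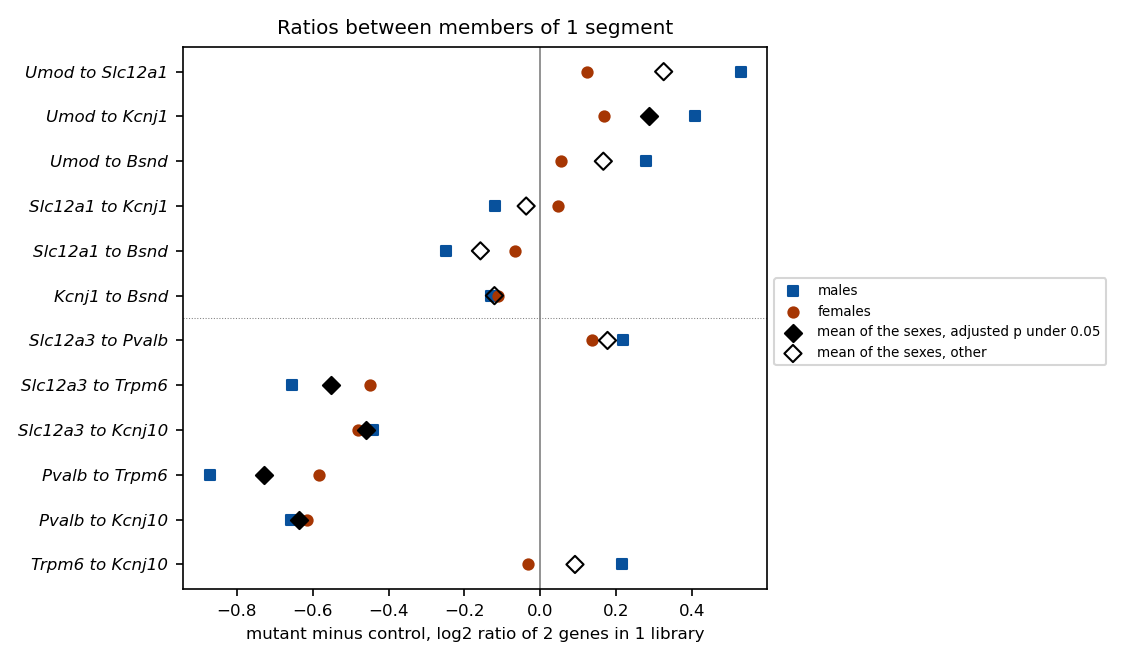
Mutant minus control difference in the log2 ratio of 2 genes in the same library (x axis) for the 12 pairs within a segment (y axis), as squares for males, circles for females and diamonds for their mean, filled where the adjusted p is under 0.05. The 4 pairs that set Slc12a3 or Pvalb against Trpm6 or Kcnj10 lie between -0.46 and -0.73, and Umod to Kcnj1 lies at 0.29.

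Other genes of the thick ascending limb fell alongside. For this and the following lists, 5.86% of all genes tested were called lower and 10.0% higher. Of 17 tested genes on a list of 18, 10 were called lower over all mice and 0 higher, with a median of -0.45. The deepest were Ppp1r1b (-1.23, adjusted p = 1.4e-05), which encodes the phosphatase inhibitor DARPP-32, and Egf (-1.12, adjusted p = 7.8e-05), the epidermal growth factor precursor. Among the others called were Nos1 (-0.94), the neuronal nitric oxide synthase of the macula densa, Wfdc15b (-0.94) and the calcium-sensing receptor Casr (-0.80). The carbonic anhydrase Car15 (-0.67), the sodium/hydrogen exchanger Slc9a2 (-0.45) and the claudin Cldn10 (-0.39) were called as well. The claudins of the magnesium and calcium pathway between cells were not: Cldn16 was at -0.12 (adjusted p = 0.442) and Cldn19 at 0.28 (adjusted p = 0.0942). Kcnj16 was at -0.02 (adjusted p = 0.88, edgeR), and Cldn14 was not tested. Kcnj16 stood on this list although it forms channels with Kcnj10, which is grouped here under the distal convoluted tubule.

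Among other genes of the distal convoluted and connecting tubule, 8 of 15 tested on a list of 16 were called lower and 1 higher, with a median of -0.48. Among the deepest were calbindin Calb1 at -1.14 (adjusted p = 1.2e-04), the sodium/calcium exchanger Slc8a1 at -0.93 (adjusted p = 7.9e-05), tissue kallikrein Klk1 at -0.91 (adjusted p = 2.0e-04) and the calcium-binding protein S100g at -0.91 (adjusted p = 6.2e-04). The sphingomyelin synthase Sgms2 (-0.60), the kinase Wnk1 (-0.55), the potassium channel regulator Abcc9 (-0.51) and the sodium pump subunit Fxyd2 (-0.48) were also called. Atp2b1, a plasma membrane calcium pump, was called higher at 0.23 (adjusted p = 0.00118, edgeR). Whether the genes on this list are confined to these segments cannot be told from whole kidneys. The calcium channel Trpv5 was at -0.22 (adjusted p = 0.204).

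The WNK and SPAK kinase pathway switches NKCC2 and NCC on by phosphorylation. Of 12 genes listed for it, 5 were called lower and 0 higher, with a median of -0.17. The list mixes kinases with other genes, a negative regulator among them, so the count gives no direction for the activity of the pathway. Klhl3 (-0.96, adjusted p = 0.0031), the adaptor that marks WNK kinases for degradation, Ppp1r1a (-0.87, adjusted p = 2.6e-04), a phosphatase inhibitor, Wnk4 (-0.66, adjusted p = 1.7e-05), Wnk1 and the mineralocorticoid receptor Nr3c2 (-0.48, adjusted p = 0.00217) made up the 5. The kinases that act on the cotransporters directly were not called, with SPAK (Stk39) at -0.15 (adjusted p = 0.21) and OSR1 (Oxsr1) at -0.02 (adjusted p = 0.791).

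Of 12 transcription factors of the distal nephron, 6 were called lower and 0 higher, with a median of -0.35. They were Esrrb (-0.55, adjusted p = 0.00112), Emx1 (-0.55, adjusted p = 0.00475), Tfap2b (-0.54, adjusted p = 8.5e-05), Irx1 (-0.53, adjusted p = 0.00174), Sim1 (-0.43, adjusted p = 0.00287) and Tfcp2l1 (-0.36, adjusted p = 0.00642).

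**Figure D5:**
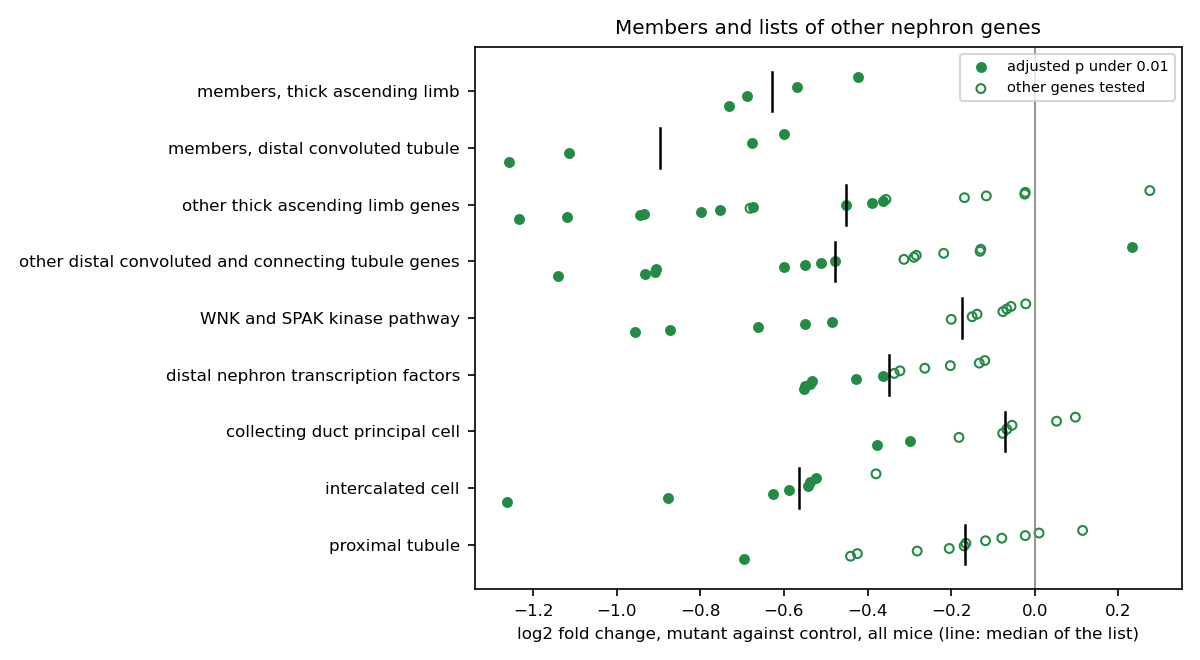
Log2 fold change of mutant against control over all mice (x axis) for the 8 genes and for lists of other nephron genes (y axis), 1 point per gene, filled where the adjusted p is under 0.01, with a line at the median of each list. The 2 member rows lie between -1.26 and -0.42, and the proximal tubule list has its median at -0.17.

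Markers of the neighbouring cells moved unevenly in the joint comparison, where 5.86% of all genes tested were called lower and 10.0% higher. Proximal tubule genes were called lower in 1 of 12, with a median of -0.17, and collecting duct principal cell genes in 2 of 8, with a median of -0.07. Intercalated cell genes were called lower in 7 of 8, with a median of -0.56 and a summed level of 584 to 659 CPM in male controls, 283 to 472 in male mutants, 767 to 861 in female controls and 314 to 667 in female mutants. Macrophage genes were called higher in 7 of 7, with summed levels of 104 to 116 CPM in male controls, 152 to 369 in male mutants, 133 to 168 in female controls and 139 to 509 in female mutants. Tubule injury genes were called higher in 7 of 8, with summed levels of 1153 to 1453 CPM in male controls, 2145 to 10440 in male mutants, 2348 to 2903 in female controls and 3088 to 11360 in female mutants. Fibroblast and myofibroblast genes were called higher in 4 of 7, with summed levels of 182 to 237, 319 to 896, 246 to 368 and 378 to 1210 CPM in the same order. None of these lists had a gene at 0 in every mouse, and their part in the lower levels of the 8 genes was not tested.

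The genes whose pattern was most like the segment markers were found by the Pearson correlation, over the 20 mice and 13773 genes with a mean of at least 1 CPM, to the average standardized log2 CPM of the 4 markers. For the thick ascending limb these were Tmem72 (r = 0.981), 5930403L14Rik (0.966), Anks1 (0.963), Cyp51 (0.955), an enzyme of cholesterol synthesis, and Rab27a (0.955), a small GTPase of vesicle transport. With the group means removed, r was 0.831, 0.803, 0.756, 0.918 and 0.619, so that of these 5 Cyp51 followed the markers most closely from mouse to mouse within groups. For the distal convoluted tubule they were Sfrp1 (r = 0.969), a secreted Wnt antagonist, Tmem52b (0.966), Ildr1 (0.959), a protein of tricellular junctions, Atp6v0d2 (0.958), a proton pump subunit on the intercalated cell list, and Ptgfr (0.958), the prostaglandin F receptor. Their values with group means removed were 0.824, 0.814, 0.753, 0.832 and 0.677. These correlations are descriptions over mice that share groups and libraries, and no p is given.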

How the data were processed

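RNA of snap-frozen kidneys was sequenced, 1 library per mouse. Reads had been trimmed by the authors (fastp 0.23.2) and aligned (STAR 2.7.10b, mm10), and the deposited values are unnormalized whole-number counts per gene symbol. The counting tool, annotation and strand setting are not given in the sources used here. Total counts were 11307741 to 19324073, and 4576 symbols had no count.

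Counts were analysed with edgeR 4.0.16 (R 4.3.3): TMM, filterByExpr, quasi-likelihood test, Benjamini-Hochberg adjustment over all genes tested, called at an adjusted p under 0.01, the study's threshold. Litter was a covariate within sex or genotype, the 6 sex and litter groups in joint fits, and sex in the KBW slope. CPM used TMM library sizes, with a prior count of 2 for log2 values. The study applied its threshold to DESeq2, which was run here as an alternative (version 1.42.0). The scripts were tested on simulated data. Each mouse is a biological replicate of its group.

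The 8 genes and the gene lists were chosen with earlier results of these data known. The text names the 8 genes, Pkd2, genes of 4 lists of thick ascending limb, distal tubule, WNK pathway and transcription factor genes with those called first, and 5 genes per segment by likeness. Other lists are given by counts. Some listed genes are not reported here by name. Some genes stand on 2 lists. Promoters come from a RefSeq table (GRCm38.p6), in which 7 of the 8 genes matched. The motifs were chosen with earlier results known, and not all searches are reported here.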

Additional observations from a re-analysis of the deposited data

Results flagged for a closer look

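Within 32 groups of 5 mice (8 genes in 4 groups), 5 held a mouse that lay far from the others by Dixon's test. Chance flags about 1 in 20 groups. The level of Umod in male mutant 2 was 3104 CPM, below the other male mutants at 3384 to 3495 CPM. The level of Kcnj1 in female mutant 3 was 200.2 CPM, below 311.9 to 372.0 CPM in the others, and this mouse had the heaviest kidney among female mutants, 1.46% of body weight. The level of Bsnd in female control 4 was 103.5 CPM, below 114.8 to 117.9 CPM. The level of Trpm6 in female control 5 was 33.5 CPM, below 51.6 to 57.4 CPM. The level of Kcnj10 in female mutant 4 was 127.2 CPM, above 68.4 to 72.8 CPM, in the library with few genes detected and the lightest mutant kidney, 0.836% of body weight, and this library also had the highest level among female mutants of Slc12a1, Kcnj1, Bsnd and Slc12a3.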

How the results depend on the processing

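No paired analysis was possible because the replicate numbers were given in accession order only and pair no mice. Mice were matched by litter instead, through the litter term and the differences within litters. The joint comparison called 8 of 8 genes under every alternative run, including each of 20 fits without a mouse. In males the count was 3 (without male control 4) to 6 without a mouse, and 5 to 8 under the other settings. In females the main count of 1 became 7 at an adjusted p under 0.05, 0 with total-count scaling, 8 with DESeq2's Wald test, 2 without a filter, 7 with all 20 mice in 1 fit and 0 to 5 without a mouse, with every estimate below 0. Between control sexes the count of 7 became 4 with all 20 mice in 1 fit and 2 to 7 without a mouse. Between mutant sexes the count of 0 became 1 at 0.05, 2 with total counts, 2 with all 20 mice in 1 fit and 0 to 1 without a mouse. For the KBW slope it became 1 at 0.05 and 1 with DESeq2's Wald test. The count of member pairs was 4 with medians, 5 when permuted within sex and litter and 5 to 7 without a mouse. The number of all genes called moved with the setting as well. In females it was 92 of 14439 by edgeR and 928 by DESeq2's Wald test. For the KBW slope it was 0 of 14416 by edgeR and 577 by DESeq2's Wald test. The counts of the 8 in this paragraph are given without that share. The causes were not tested.

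Reversals concerned estimates near 0. For the sex-by-genotype term, Kcnj1 was at -0.00882 with total counts, and without a mouse the term ran from -0.0694 to 0.148 for Kcnj1, -0.0451 to 0.260 for Kcnj10, -0.0164 to 0.197 for Bsnd, -0.0762 to 0.305 for Slc12a3 and -0.152 to 0.285 for Pvalb. The KBW slope of Umod was -0.0863 without the sex term, and that of Trpm6 -0.344 without it, -0.00811 with litter added and -0.0877 to 0.265 without a mouse. The ratio of Slc12a1 to Kcnj1 was 0.0139 with medians and -0.067 to 0.0126 without a mouse, and that of Slc12a3 to Pvalb was -0.0638 with medians. Total-count scaling moved the median slope of all genes on KBW from -0.06 to 0.11.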

Other observations

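Other lists of kidney genes gave these counts for mutants against controls over all mice, where 5.86% of all genes tested were called lower and 10.0% higher. Podocyte genes were called lower in 5 of 7, with a median of -0.49. Of 8 thin limb and inner medulla genes, 3 were called higher and 1 lower, with a median of 0.52. Genes of the sodium pump and its mitochondrial supply were called lower in 2 of 6, with a median of -0.27. Endothelial genes were called in 0 of 7, with a median of -0.09, and T and B cell genes in 0 of 5 tested. On the adrenal gland and erythroid cell lists 1 gene each was tested, and the erythroid gene was called lower, while 4 of the 6 erythroid genes were at 0 in every mouse.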
